A study of Arabidopsis thaliana with 4 samples.

Results

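The genes described here carry an annotation as a ribosomal protein of the eukaryotic type in a Ribo-seq study of Arabidopsis thaliana. The study sequenced ribosome-protected mRNA fragments to ask which genes change in translation when ClpD, a chloroplast protein, is made in excess as its precursor. They were chosen from the gene annotations of the deposited table. A nuclear gene was taken when its annotation held the word ribosomal together with 60S, 40S, acidic, Zinc-binding ribosomal or a eukaryotic family name such as L38e or S7e, and it was dropped when the annotation named a chloroplast, a plastid, a mitochondrion or a kinase. The rule found 146 of 27554 genes under 46 different annotations. Of these, 131 had enough footprints to be tested. The samples were seedlings of line 5, in which ClpD is constitutively overexpressed in a WT background, and WT seedlings, with 2 libraries for each genotype. All seedlings were 6 days old and were harvested whole. The lysis buffer contained cycloheximide, which stalls cytosolic ribosomes on mRNA. Line 5 is a single transgenic line, the promoter that drives ClpD is not given in the sources used here, and separate cultures are not stated for the 2 libraries of a genotype, so p-values measure only the spread between these libraries.

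Each cytosolic ribosome joins a small 40S subunit, which reads the mRNA, and a large 60S subunit, which forms peptide bonds. Acidic P-proteins form a flexible stalk on the large subunit that recruits translation factors. In plants each ribosomal protein is usually encoded by a small family of paralogs, so ribosomes can differ in which copy they hold. Ribosomal protein genes rank among the most heavily translated genes of growing tissue, and their synthesis is tied to ribosome assembly in the nucleolus and to the growth-promoting kinase TOR.

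The annotation rule did not select cytosolic proteins alone. Family names such as L1p/L10e, L14p/L23e or L18p/L5e describe a domain that cytosolic, plastid and mitochondrial ribosomes share, and 56 of the 146 genes carried such a shared name. EMB3126 (AT3G63490), annotated L1p/L10e, is listed in RefSeq with the synonym plastid ribosomal protein L1. HLL (AT1G17560) and NFD3 (AT1G31817) are known as proteins of the mitochondrial ribosome. In yeast, several assembly factors of the nucleolus that are not ribosomal proteins also carry domains of the L1, L7Ae, L24e and S8e type. A further 2 genes annotated with 40s in lower case, AT1G72370 and AT3G04770, lay just outside the rule. In all, 261 other nuclear genes annotated ribosomal fell outside it, and only 15 of these had a plastid or mitochondrial word. Shares, ratios and rankings below cover the genes taken by the rule, not all ribosomal protein genes. The genes are therefore called ribosomal protein genes as annotated.

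The libraries held 42291527 and 38990360 counts in line 5, against 29772406 and 27260818 counts in WT. ClpD (AT5G51070, listed as ERD1) reached 3112 and 3302 CPM (counts scaled to library size with edgeR's TMM factors) in line 5, against 167 and 175 CPM in WT. Its log2 fold change was 4.23 (SE 0.128, edgeR adjusted p = 0.00126). Footprint counts depend on mRNA level and on ribosome occupancy, which cannot be told apart here, and in whole seedlings fewer cells of a type cannot be told apart from fewer footprints per cell. Of 6 markers of green tissue, 3 were called lower in line 5 by edgeR and 5 by DESeq2, beside 8.72% of all genes called lower by edgeR, and the 6 together held 4.02% and 3.51% of nucleus-encoded counts in line 5, against 4.61% and 4.94% in WT. None of 7 markers of dividing cells was called by edgeR, by DESeq2 or at an unadjusted p below 0.05, and their summed level was 168 and 198 CPM in line 5, against 208 and 182 CPM in WT. Among 8 root markers, SCR was called lower (log2 fold change -0.92), SHR (-0.08) and MYB66 (0.26) were not called and overlapped between genotypes, and the root hair genes RHD6 and EXPA7 and the iron transporter IRT1 had at most 4 counts in any library. The summed level of the 4 seed storage and oil body markers was 9.49 and 2.52 CPM in line 5, against 22.2 and 25.9 CPM in WT. The part of tissue makeup in the results below was not tested.

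Ribosomal protein genes were strongly translated in both genotypes. Over the 131 tested genes the median level was 232 FPKM, the authors' unit per gene length and library total, against 9.61 FPKM over all 18737 genes tested. AT3G60245, a zinc-binding ribosomal protein, had the highest level among the 131 genes, with 980 and 1053 FPKM in line 5 and 1032 and 1102 FPKM in WT. The L19e gene emb2386 (AT1G02780) followed with 1032 and 982 FPKM in line 5 and 1075 and 984 FPKM in WT. These ranges overlap, so the order of the 2 genes is not fixed by the data. Outside the rule, the highest mean level of a nuclear gene annotated ribosomal was 1254 FPKM.

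AT5G56710 (L31e) stood at 984 and 913 FPKM in line 5 and at 909 and 863 FPKM in WT. RPL27AB (AT1G23290), of the L18e/L15 superfamily, was measured at 878 and 870 FPKM in line 5, against 805 and 814 FPKM in WT. The stalk gene AT1G01100 was measured at 777 and 826 FPKM in line 5, against 896 and 855 FPKM in WT. FPKM is scaled by library total, and its direction between genotypes differs for several genes from that of TMM-scaled CPM, as set out below.

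On the TMM scale these 5 most highly translated genes were all lower in both line 5 libraries than in both WT libraries, and none was called. The same held for 89.6% of the 48 ribosomal protein genes at 300 FPKM or more. It also held for 59.4% of 507 other nuclear genes at that level and for 33.4% of all genes. For the 5 genes the log2 fold changes were -0.31 for AT3G60245, -0.27 for emb2386, -0.14 for AT5G56710, -0.13 for RPL27AB and -0.37 for AT1G01100. The smallest edgeR adjusted p among them was 0.0607, for AT1G01100, which DESeq2 called lower (adjusted p = 0.0397). With library totals as the scale AT5G56710 and RPL27AB turned to log2 fold changes of 0.10 and 0.11.

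Few ribosomal protein genes changed individually between the genotypes. With edgeR, 4 of the 131 tested genes were called higher in line 5 and 1 was called lower, while 15.4% of all genes tested were called (6.72% higher and 8.72% lower). The share among ribosomal protein genes was 3.82%, below that background. DESeq2 called the same 5 genes and AT1G01100 lower, beside 20.7% of all genes. At an unadjusted p below 0.05, 12 genes lay higher and 21 lower, 33 in all, whereas 35.8% of all genes tested passed that mark. The typical standard error of a log2 fold change was 0.110 for these genes and 0.168 for all genes. All 5 calls were lost when either line 5 library was left out, settings in which only 51 and 28 genes of the whole table (0.27% and 0.149%) were called. Without the first WT library 5 were called higher and 6 lower (26.5% of all genes called), and without the second 4 higher and none lower (17.4%).

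The shift of the genes as a group was small and ran downward on the TMM scale. The median log2 fold change was -0.13 over the 131 tested genes and 0.00 over all genes tested. Of the 131 genes, 100 had a log2 fold change below 0 and 31 above 0, whereas all genes split nearly evenly, with 9337 below and 9400 above. In 76 genes (58.0%) both line 5 libraries lay below both WT libraries, against 33.4% of all genes, and in 20 genes (15.3%) both lay above, against 34.7% of all genes.

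The direction of that median depended on the scale, which shifts all genes by about the same amount. With library totals the median of all genes moved to 0.24 and that of the ribosomal protein genes to 0.10, so that 101 of 131 lay above 0. The difference between the group's median and that of all genes, which a scale hardly alters, was -0.14, and it ranged from -0.18 to -0.09 when single libraries were left out. With library totals 13 of the 131 genes were called higher and none lower, beside 17.9% of all genes called higher and 6.54% called lower (24.4% in all). That setting kept 4 of the 5 calls made with TMM.

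**Figure D1:**
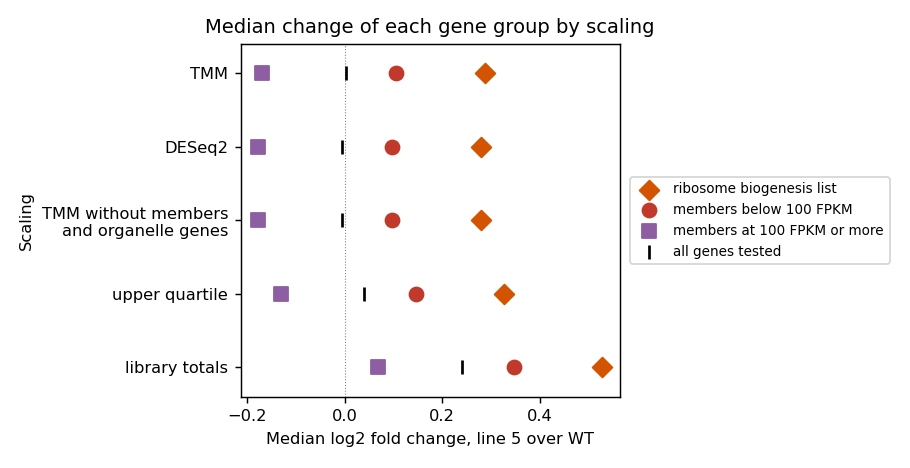
Median log2 fold change (line 5 over WT, horizontal axis) of the ribosome biogenesis list, of the annotated ribosomal protein genes below and at or above 100 FPKM and of all genes tested, under 5 ways of scaling the libraries. A scaling shifts all groups alike, and library totals moved them upward, all genes to 0.24 and the genes at 100 FPKM or more to 0.07.

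All 4 genes called higher carried shared domain names of the large subunit. AT3G58660, of the L1p/L10e family, had 43.9 and 45.0 CPM in line 5, against 27.3 and 28.6 CPM in WT. Its log2 fold change was 0.67 (SE 0.0995, edgeR adjusted p = 0.0235), a 1.59-fold higher level in line 5. AT2G42710, also L1p/L10e, had 28.9 and 28.6 CPM in line 5, against 16.8 and 18.7 CPM in WT. Both genes were tightly grouped within each genotype.

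AT2G42650, a further gene with the L1p/L10e annotation, had 9.24 and 8.83 CPM in line 5, against 5.22 and 3.88 CPM in WT, which made it 1.98-fold higher. Its adjusted p was 0.0346 with edgeR, and that of AT2G42710, with a 1.63-fold higher level, was 0.0264. AT5G64670, of the L18e/L15 superfamily, had 23.5 and 24.9 CPM in line 5, against 16.9 and 17.0 CPM in WT. It was 1.43-fold higher (edgeR adjusted p = 0.0388). The 4 genes had mean levels of 6.09 to 26.97 FPKM, far below the median of the group. Which compartment these proteins work in is not given by the annotation.

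The single gene called lower was AT5G02440, annotated 60S ribosomal protein L36. It had 5.44 and 3.90 CPM in line 5, against 8.15 and 10.1 CPM in WT. The log2 fold change was -0.96 (SE 0.225, edgeR adjusted p = 0.0496), and the call was also lost without the second WT library. Its identifier is next to that of AT5G02450, annotated L36e, which had a mean level of 410 FPKM against 11.9 FPKM for AT5G02440 and a log2 fold change of -0.03. Whether counting used strand is not stated, so reads of neighbouring genes that overlap could not be separated. The same holds for AT5G47940 (40S ribosomal protein S27, 4.06 FPKM, log2 fold change 0.44, not called), next to AT5G47930 (zinc-binding, 134 FPKM, log2 fold change -0.22).

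**Figure D2:**
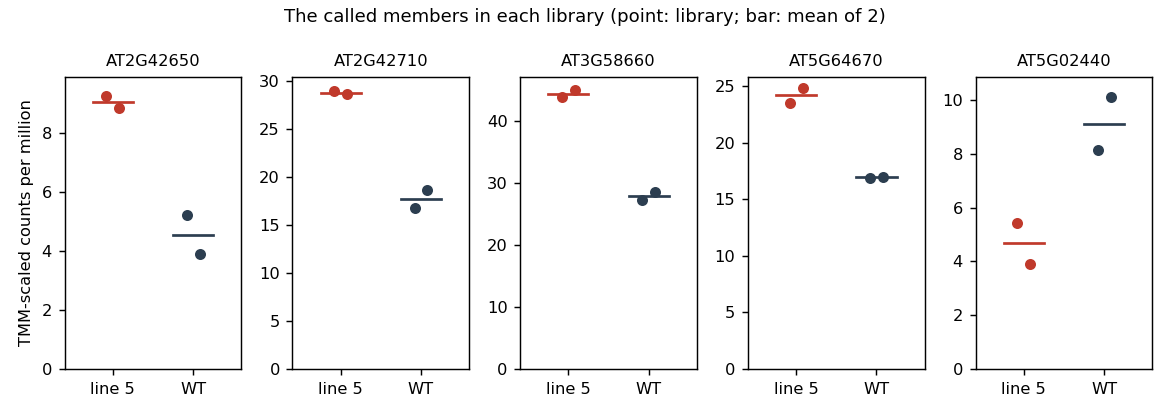
TMM-scaled CPM of the 5 called ribosomal protein genes in each library, line 5 left of WT, with points for libraries and bars for the mean of 2. In AT2G42650, AT2G42710, AT3G58660 and AT5G64670 both line 5 libraries lie above both WT libraries, and in AT5G02440 both lie below.

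Log2 fold changes differed with the level at which a gene was translated. The split at 100 FPKM was chosen after the values were seen and is a description. Of the 84 genes at 100 FPKM or more, 80 had a log2 fold change below 0, with a median of -0.17 and a range from -0.44 to 0.24. None of them was called by edgeR, and DESeq2 called only AT1G01100. At an unadjusted p below 0.05, 18 lay lower and none higher. Of 1519 other nuclear genes at 100 FPKM or more, 448 lay lower and 197 higher at that p, and 1003 had a log2 fold change below 0. Of all 18737 genes tested, 3512 lay lower and 3201 higher at that p. The 47 tested genes below 100 FPKM spread from -0.96 to 1.30, with a median of 0.11, and held all 5 calls. Of those, 27 lay above 0.

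Other nuclear genes also had lower medians at higher levels. At 300 FPKM or more, all 48 ribosomal protein genes lay below 0 with a median of -0.17, beside a median of -0.21 in 507 other nuclear genes at that level. Between 100 and 300 FPKM the 36 ribosomal protein genes had a median of -0.17 and 1012 other nuclear genes one of -0.08. Below 10 FPKM the medians were 0.33 in 17 tested ribosomal protein genes and 0.03 in 9540 other nuclear genes. With library totals the median of the genes at 100 FPKM or more was 0.07 and that of the genes below it 0.35, since that scale moves all genes upward by about 0.24.

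The log2 fold changes of highly translated ribosomal protein genes lay close together. Their quartiles were at -0.26 and -0.12, whereas in 1519 other nuclear genes at 100 FPKM or more they were at -0.43 and 0.09. Of those other genes, 22.2% were called by edgeR.

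The subunit classes had medians between -0.22 and -0.12, and no test between them was made. Genes whose annotation names the large subunit (74 tested) had a median log2 fold change of -0.12, with 4 called higher and 1 called lower. Small subunit genes (29 tested) had a median of -0.17, and 24 of them lay below 0. No small subunit gene was called by edgeR or DESeq2, and at an unadjusted p below 0.05 there were 1 higher and 3 lower. A further 19 tested genes have annotations that do not name the subunit, with a median of -0.17 and no call by either tool.

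Stalk genes had the lowest median of these classes. The 8 tested zinc-binding genes, a part of the class without a named subunit, had a lower median of -0.25. The 9 tested acidic P-protein genes had a median log2 fold change of -0.22, and in 7 of them (77.8%) both line 5 libraries lay below both WT libraries, against 33.4% of all genes. The same held for 81.0% of the ribosomal protein genes at 100 FPKM or more and 48.8% of other nuclear genes at that level. The separation is thus not particular to the stalk. None was called by edgeR, and DESeq2 called AT1G01100. At an unadjusted p below 0.05, 4 lay lower and none higher, beside 3512 lower and 3201 higher of all 18737 genes tested. AT1G01100 had 238 and 248 CPM in line 5, against 311 and 317 CPM in WT. AT4G25890, another stalk gene, had 21.5 and 20.5 CPM in line 5, against 26.9 and 31.6 CPM in WT, a log2 fold change of -0.48 (edgeR adjusted p = 0.0635). It was chosen here after its values were seen, as the lowest of the class.

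Ratios of summed counts within a library need no scaling between libraries. Acidic stalk counts per large subunit count were 0.0959 and 0.102 in line 5, against 0.107 and 0.108 in WT, a ratio 0.923 times that of WT. Small subunit counts per large subunit count were 0.445 and 0.435 in line 5, against 0.449 and 0.445 in WT, and these ranges overlap. The exact two-sided permutation test gave p = 0.333 for the stalk ratio, the smallest value that 2 libraries against 2 allow, and p = 0.667 for the subunit ratio.

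The 261 nuclear genes annotated ribosomal outside the rule held 33370 and 31943 CPM in line 5, against 35540 and 36163 CPM in WT. The 146 genes taken by the rule held 14962 and 14024 CPM in line 5, against 16141 and 16395 CPM in WT. For these 146 genes alone, the share of nucleus-encoded counts overlapped between genotypes. It was 1.62% and 1.55% in line 5, against 1.56% and 1.49% in WT, or 1.58% ± 0.0470 against 1.53% ± 0.0459 (SD, n = 2 each, exact permutation p = 0.667). The exact binomial 95% intervals, which cover counting error only, ran from 1.613% to 1.620% and from 1.546% to 1.554% in line 5, and from 1.553% to 1.562% and from 1.488% to 1.497% in WT. Of all counts, organelle genes included, the share was 1.61% and 1.54% in line 5, against 1.54% and 1.46% in WT, which does not overlap before rounding (exact permutation p = 0.333, the smallest possible). Within this share the weakly translated genes took a larger part in both line 5 libraries. Counts of genes below 100 FPKM per 100 counts of genes at or above it were 5.18 and 5.29 in line 5, against 4.31 and 4.34 in WT (exact permutation p = 0.333, the smallest possible).

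**Figure D3:**
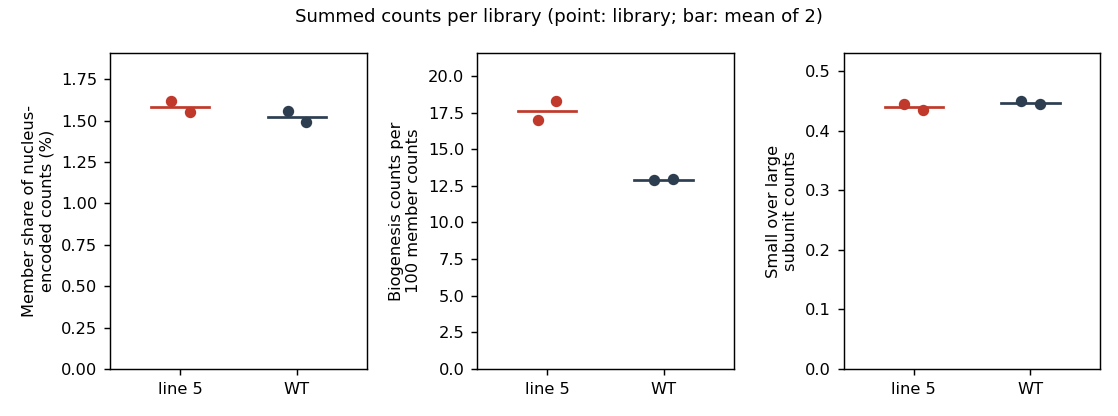
Summed counts in each library, line 5 left of WT: the share of nucleus-encoded counts on annotated ribosomal protein genes in percent, counts of the ribosome biogenesis list per 100 ribosomal protein counts, and small subunit counts over large subunit counts. Points are libraries and bars the mean of 2; the biogenesis ratio is higher in both line 5 libraries, while the other 2 ratios overlap between genotypes.

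The rank order of genes under the same annotation was mostly shared by the libraries. Annotations with at least 2 tested genes were taken as families, 31 in all with 122 genes. Some annotations, such as L7Ae/L30e/S12e/Gadd45 or zinc-binding, do not name a single protein, so their genes need not be paralogs. In 27 of the 31 families the same gene had the highest FPKM in all 4 libraries, and in 21 the whole order of the genes was the same. In the 19 families with eukaryotic names, which hold 52 genes, these counts were 16 and 15. Ranks hardly move with small changes of level. The share of a gene in its family's counts did not overlap between genotypes for 80 of the 122 genes. Such a gene was held by 28 of the 31 families, with an exact permutation p of 0.333 for each, the smallest possible. Beside this, the levels of 34.7% of all genes lay wholly higher in line 5 and those of 33.4% wholly lower. In families of 2 genes the shares are complements, so both overlap or neither does. The count is therefore not read as a result about paralogs.

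The 2 tested L32e genes illustrate a steady mix. AT4G18100 took 79.2% and 79.7% of the family's counts in line 5, against 79.7% and 77.6% in WT. The S3Ae genes lay together, with log2 fold changes of -0.17 for AT3G04840 and -0.18 for AT4G34670. Among the 3 L31e genes the log2 fold changes differed by only 0.04, and AT5G56710 took 71.5% and 70.3% of the counts in line 5, against 70.6% and 70.7% in WT. These 3 families were chosen for their small differences.

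Among genes with a mean of at least 5 CPM, the L1p/L10e annotation had the widest spread, over 8 genes. With all tested genes counted, L18p/L5e ranged further, from -0.15 to 1.30 over 9 genes. The highly translated AT1G08360 had 214 and 191 CPM in line 5, against 233 and 220 CPM in WT, with a log2 fold change of -0.16. The called AT2G42650 lay 1.15 above it on the log2 scale. Together the called genes AT3G58660, AT2G42710 and AT2G42650 held small parts of the annotation's counts. The share of AT3G58660 was 4.31% and 4.66% in line 5, against 2.62% and 2.75% in WT, while PGY1 (AT2G27530) held 24.82% and 22.98% in line 5, against 24.69% and 23.50% in WT. The largest holder was EMB3126, listed as plastid L1, with 38.6% and 41.9% in line 5, against 40.8% and 44.0% in WT. Shares under this annotation therefore mix compartments.

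Under the L7Ae/L30e/S12e/Gadd45 annotation, AT4G12600 and AT1G15930 lay on opposite sides of 0. AT4G12600 had 32.8 and 33.8 CPM in line 5, against 24.3 and 26.3 CPM in WT (log2 fold change 0.40, edgeR adjusted p = 0.0639). AT1G15930 had 145 and 129 CPM in line 5, against 179 and 180 CPM in WT (log2 fold change -0.39, edgeR adjusted p = 0.0650). Neither was called, and in both the genotypes do not overlap.

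Under L22p/L17e the weakly translated AT1G52370 had 11.1 and 12.5 CPM in line 5, against 8.36 and 8.63 CPM in WT, with a log2 fold change of 0.47 (edgeR adjusted p = 0.0671). Its relative AT1G27400 had 140 and 135 CPM in line 5, against 167 and 168 CPM in WT, with a log2 fold change of -0.28. In the L18e/L15 superfamily the called AT5G64670 stood beside AT1G70600, which had 208 and 193 CPM in line 5, against 226 and 239 CPM in WT (log2 fold change -0.22). In each of these pairs the gene that was higher in line 5 was the one with the lower level.

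Among families with eukaryotic names the S24e family had the largest difference between genes of at least 5 CPM, 0.56 on the log2 scale. With all tested genes counted, L34e ranged further, from -0.41 to 0.36. This ranking holds only for genes with the same annotation. AT5G02440 (log2 fold change -0.96), annotated 60S ribosomal protein L36, was not grouped with L36e genes such as AT5G02450 (-0.03), and that pair lay further apart. AT5G02740 had 29.16 and 24.99 CPM in line 5, against 22.60 and 21.42 CPM in WT (log2 fold change 0.30). AT3G04920 had 161 and 139 CPM in line 5, against 179 CPM in both WT libraries (log2 fold change -0.26). The share of AT5G02740 in the family's counts was 7.36% and 7.01% in line 5, against 5.46% and 5.17% in WT (exact permutation p = 0.333, the smallest possible). AT5G28060, the most translated S24e gene, kept the top rank with 51.9% and 54.2% in line 5, against 51.3% and 51.6% in WT.

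The top gene of a family by FPKM differed between libraries in only 3 families with eukaryotic names. The shares given here are of counts, which are not scaled by gene length. By counts AT3G53740 led L36e in all 4 libraries. In S26e, AT2G40510 took 42.8% and 44.5% of the counts in line 5, against 38.9% and 36.9% in WT, while AT3G56340 took 43.7% and 42.9% in line 5, against 47.9% and 46.2% in WT. In L38e the share of AT2G43460 was 52.8% and 52.5% in line 5, against 48.1% and 50.3% in WT. In L36e, AT5G02450 held 43.6% and 43.5% in line 5, against 41.2% and 41.8% in WT, next to AT3G53740 with 44.4% and 46.0% in line 5, against 44.8% and 43.9% in WT. The shares of AT2G40510, AT3G56340, AT2G43460 and AT5G02450 do not overlap between genotypes, while that of AT3G53740 does, and with 2 libraries each the exact permutation p cannot go below 0.333. How reads of near-identical paralogs were divided was not given in the sources used here, so shares within a family are uncertain to that extent.

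**Figure D4:**
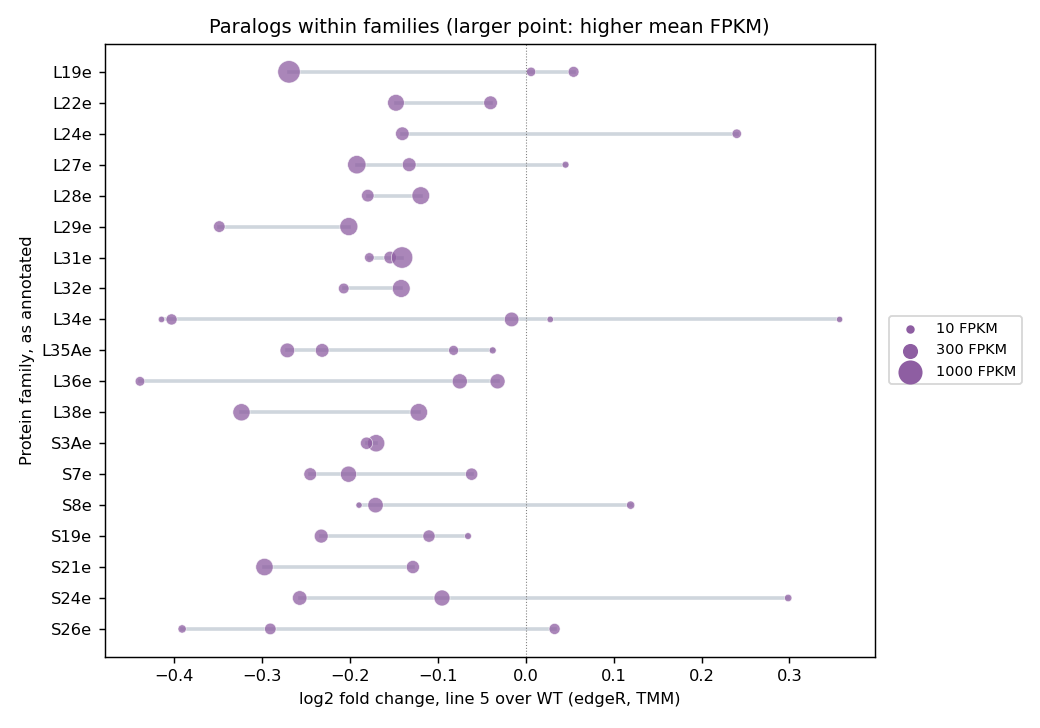
Log2 fold change (line 5 over WT, horizontal axis) of each tested gene in the 19 families with eukaryotic names; each point is a gene, its size grows with mean FPKM, and lines join the lowest and the highest gene of a family. The L34e family spans from -0.41 to 0.36 and S24e from -0.26 to 0.30, while the L31e genes differ by 0.04.

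Some genes that build ribosomes were called higher in line 5. Of 44 genes on a list of ribosome biogenesis factors, 7 were called higher and none lower, beside 6.72% called higher in all genes. The share called in either direction was 15.9%, near the 15.4% of all genes. At an unadjusted p below 0.05, 20 lay higher and none lower, beside 3201 higher and 3512 lower of all 18737 genes tested. In 30 genes both line 5 libraries lay above both WT libraries, against 34.7% of all genes, and the median log2 fold change was 0.29. DESeq2 also called 7 higher and none lower, but left out TOZ and called AT2G27200, which edgeR did not (log2 fold change 1.64, edgeR adjusted p = 0.0502). No test of the list against the ribosomal protein genes was made, and with library totals most of both lay above 0. AT5G08180 belongs both to this list and to the annotated ribosomal protein genes (log2 fold change -0.02).

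The nucleolar protein gene NUC-L1, a nucleolin that acts in rRNA gene transcription and pre-rRNA processing, had 459 and 528 CPM in line 5, against 314 and 276 CPM in WT (1.67-fold higher, edgeR adjusted p = 0.0294). SWA1, needed for pre-rRNA processing during gametophyte division, had 29.5 and 32.1 CPM in line 5, against 19.0 and 16.6 CPM in WT (1.73-fold higher, edgeR adjusted p = 0.0256). RH36, an RNA helicase, had 8.96 and 10.4 CPM in line 5, against 5.54 and 5.12 CPM in WT (1.82-fold higher, edgeR adjusted p = 0.0305). In all 3 the genotypes are well separated.

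The midasin-like gene AT1G67120, whose yeast counterpart is a large ATPase that strips assembly factors from the 60S precursor, had 53.3 and 48.7 CPM in line 5, against 33.8 and 34.5 CPM in WT (1.49-fold higher). EDA25, annotated with a CCAAT-binding factor domain, was 1.44-fold higher, the WD40 protein gene AT2G40360 1.45-fold and TOZ, a WD40 protein, 1.35-fold, with an edgeR adjusted p of at most 0.0492. TOZ was not called by DESeq2, and its FDR in the authors' deposited table was 0.0853. FIB1, a fibrillarin that methylates rRNA, was not called (log2 fold change -0.10). The list's counts per 100 ribosomal protein counts, a ratio within each library, were 17.0 and 18.3 in line 5, against 12.9 and 12.9 in WT, or 17.6 ± 0.899 against 12.9 ± 0.0485 (SD, n = 2 each). The ratio was 1.37-fold higher in line 5, with an exact permutation p of 0.333, the smallest possible. NUC-L1 alone held 459 and 528 of the list's 2579 and 2594 CPM in line 5, and 314 and 276 of 2112 and 2158 CPM in WT. A large part of the difference in the sums thus came from this gene.

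Of 18 regulators of ribosome synthesis and translation, 1 was called lower and none higher by edgeR and by DESeq2. At an unadjusted p below 0.05, PK1, S6K2 and NAC082 lay lower and LARP1b alone higher, beside 3512 lower and 3201 higher of all 18737 genes tested. The median log2 fold change was -0.16, with 14 genes below 0 and 4 above. In 61.1% both line 5 libraries lay below both WT libraries, against 33.4% of all genes, and in 16.7% above, against 34.7%. The share called was 5.56%, below the 15.4% of all genes. The called gene, PK1 (AT3G08730), encodes an S6 kinase, a target of TOR that phosphorylates ribosomal protein S6. It had 12.98 and 11.96 CPM in line 5, against 21.09 and 22.82 CPM in WT, a log2 fold change of -0.82 (SE 0.117, edgeR adjusted p = 0.0226). Its neighbour and close copy S6K2, whose reads counting could have mixed with those of PK1, had 22.8 and 23.4 CPM in line 5, against 28.7 and 36.8 CPM in WT, and was not called (log2 fold change -0.50, edgeR adjusted p = 0.0803). TOR itself had 56.0 and 59.3 CPM in line 5, against 69.4 and 65.3 CPM in WT (log2 fold change -0.22, edgeR adjusted p = 0.174). The S6e gene EMB3010 (AT5G10360), a member of the annotated set, had 362 and 335 CPM in line 5, against 386 and 378 CPM in WT, with a log2 fold change of -0.13.

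RACK1, a scaffold protein of the 40S subunit, is encoded by 3 genes that the annotation rule does not take. RACK1A (AT1G18080, listed as ATARCA) had 626 and 555 CPM in line 5, against 674 and 631 CPM in WT. The log2 fold changes were -0.14 for RACK1A, -0.08 for RACK1B (AT1G48630) and -0.26 for RACK1C (AT3G18130), and none was called. RACK1 counts per 100 ribosomal protein counts were 5.68 and 5.37 in line 5, against 5.59 and 5.31 in WT, which overlap. With library totals RACK1A, RACK1B and TOR turned to small positive values.

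Nuclear genes that are annotated ribosomal but fall outside the rule were also seldom called. Of 243 tested, 6 were called higher and 2 lower, a share of 3.29%, and their median log2 fold change was -0.07. No test of the difference between them and the annotated eukaryotic genes was made.

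In the authors' deposited table, the same 5 ribosomal protein genes had an FDR below 0.05, with the same directions, beside 12.7% of its genes. The authors' log2 fold changes, which follow FPKM, were 0.91 for AT3G58660, 1.22 for AT2G42650 and -0.73 for AT5G02440. The median of the authors' log2 fold changes was 0.10 over the 131 tested ribosomal protein genes and 0.24 over all tested genes, as with library totals.

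The 15 genes that were not tested had at most 10 counts in any library. In 11 of them no library held more than 1 count, and 5 had no count at all. They include AT2G47570 (60S ribosomal protein L18), AT4G16030 (L19e) and AT1G53950, annotated as a ubiquitin and S27a fusion, which were listed at 0 in all 4 libraries. A count of 0 allows up to 3 counts, or 0.0660 to 0.124 CPM on the TMM scale.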

How the data were processed

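Whole-seedling Ribo-seq libraries of line 5 and WT were analysed, 2 of each. Per the file headers, the authors deposited for every gene a whole-number count and an FPKM value in each library, with the FDR, p-value and log2 fold change of their own comparison. The submitters' processing notes name DESeq2, RSEM, STAR, Bowtie2, fastp and TAIR10, without roles or versions. The counts may be rounded RSEM estimates. Rows without an identifier (5, holding 0.0145% to 0.0340% of a library) were left out.

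Counts were tested with edgeR 4.0.16 in R 4.3.3 (filterByExpr with a minimum count of 10, TMM, quasi-likelihood test on genotype, two-sided), with Benjamini-Hochberg adjustment over 18737 genes and a threshold of 0.05. The code was tested on simulated counts. TMM factors were 1.07 and 1.10 for line 5 and 0.953 and 0.889 for WT. Levels are compared between genes in FPKM. The 2 libraries of each genotype were not duplicates (chi-square over degrees of freedom 26.7 in line 5 and 40.8 in WT). Alternatives were DESeq2 1.42.0, other scalings and filters, a replicate block and single libraries left out.

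Named genes are ClpD, called ribosomal protein genes, the 5 with the highest level per length, pairs of the 5 families with the largest difference of log2 fold change at 5 CPM or more, called genes of the other lists, RACK1 and TOR; others were named after their values were seen. Families were grouped by annotation, since protein sequences were not used here. The genes and lists were chosen with earlier results of these data known. Names follow RefSeq (TAIR10.1), in which all 146 identifiers were found, and no coordinates are given because that build's name differs.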

Additional observations from a re-analysis of the deposited data

How the results depend on the processing

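The median log2 fold change of the ribosomal protein genes was reversed only with library totals (0.10). Counts of their calls were 13 higher and 0 lower with library totals, 2 lower with DESeq2, and 0 in both directions with the replicate block. Leaving out single libraries gave 0 to 5 higher and 0 to 6 lower calls; 5 and 6 came without the first WT library, and 4 and 0 without the second. The biogenesis list had 25 calls higher with library totals, 11 with upper quartile factors and 0 with the replicate block. Of all 18737 genes tested, 4581, 2981 and 743 were called in these 3 settings in either direction, against 2893 in the main fit. With library totals, 17.9% of all genes were called higher. With single libraries left out the list's median log2 fold change ranged from 0.22 to 0.34. The regulator list had 1 higher with library totals (LARP1b), 0 lower with the block and 0 to 3 lower with single libraries left out. The filters on low counts moved no count by more than 1.5 times.

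With library totals 7 named genes turned to small positive log2 fold changes: AT1G08360 (0.0749), RACK1A (0.0933), RPL27AB (0.11), RACK1B (0.16), TOR (0.0138), AT1G70600 (0.0238) and AT5G56710 (0.10). With single libraries left out RACK1B ranged from -0.16 to 0.0035, the upper value without the second line 5 library. The difference in family share, line 5 minus WT, ranged with single libraries left out from -0.631 to 1.72 percentage points for RPL27AB (lowest without the first WT library) and from -0.345 to 0.897 for AT5G56710 (lowest without the first line 5 library).

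Same-numbered libraries share only a number: their deviations from the group means correlated at -0.117 across 18737 genes, and the block left 743 genes called, against 2893 without it. Pairing the numbers crosswise called 3597 genes, with 4 ribosomal protein genes higher and 1 lower. With a single library left in a genotype, that library is assumed to vary like the other genotype. With 2 libraries per genotype no exact permutation p can be below 0.333. Adding the 2 genes annotated with 40s in lower case changed no count of calls.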

Other observations

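The 6 green tissue markers are part of the nucleus-encoded total used for the share above. With those 6 genes taken out of the total, the share of nucleus-encoded counts on annotated ribosomal protein genes was 1.68% and 1.61% in line 5, against 1.63% and 1.57% in WT. The genotypes overlapped (exact permutation p = 0.667), as they did with the 6 genes included. Other photosynthesis genes stayed in the total, and the part of tissue makeup was not tested.

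Under L24e, AT2G44860 held 26.9% and 27.7% of the family's counts in line 5, against 22.5% and 22.2% in WT, with STV1 (AT3G53020) holding the rest. Domains of the L24e type also occur in yeast assembly factors, so the annotation does not tell whether both genes encode the same ribosomal protein. AT2G44860 was the one gene at 100 FPKM or more that library totals called higher (adjusted p = 0.0377, edgeR), and it was not called with TMM. Under L34e, AT3G28900 held 66.9% in both line 5 libraries, against 63.6% and 59.0% in WT, and AT1G26880 held 28.8% and 28.3% in line 5, against 31.7% and 36.7% in WT. Under L19e, emb2386 held 77.5% and 77.2% in line 5, against 80.9% and 80.8% in WT. These shares were chosen after their values were seen, and with 2 libraries per genotype their exact permutation p was 0.333, the smallest possible.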
